A study of Mus musculus with 28 samples.

Results

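The 10 genes described here mark the epithelium of the lung: *Sftpc*, *Sftpa1*, *Sftpb*, *Sftpd*, *Scgb1a1*, *Ager*, *Cldn18*, *Lamp3*, *Aqp5* and *Epcam*. They were taken by name from a count table of 28244 mouse genes, and all 10 of the 10 names were found there. Each was followed through all 28 libraries and 11 groups. The study asked whether cells that grow as neural stem cells (NSCs) can be raised from organs outside the central nervous system, and it called the resulting lines peripheral NSCs (pNSCs). Because some of those lines were started from lung, the 10 genes also show how much lung epithelial RNA the lung-derived lines carried.

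Groups of 2 libraries each were labelled Lung-pNSC, Tail-pNSC, Brain-NSC, Lung and Tail. Their labels name no reporter. They match the study's Nes-GFP experiment, in which GFP driven by regulatory elements of *Nes* was used to sort adult lung cells and postnatal tail cells before culture. A further 2 groups of 3 libraries were Sox2-GFP lung pNSCs and Sox2-GFP brain NSCs, which carry a GFP reporter of *Sox2*. These lung pNSCs came from GFP+ cells of postnatal lung, whereas Lung-pNSC came from adult lung, so donor age and reporter cannot be told apart between the lung pNSC groups. The last 4 groups of 3 libraries were Wnt1Cre-mTmG Tail pNSCs, Wnt1Cre-mTmG DRG pNSCs, Wnt1Cre-mTmG brain NSCs and DRG NCSCs. Wnt1-Cre marks the neural crest lineage by switching a Tomato membrane label to GFP. DRG stands for dorsal root ganglion, and NCSCs are neural crest stem cells, which the study derived from ganglia of adult wild-type mice. The Wnt1Cre-mTmG Tail and DRG lines came from postnatal tissue. By the study's methods brain NSCs came from adult or postnatal mice, and the sources used here give no donor age for each brain NSC group. All 28 libraries are labelled C57BL/6, whereas the study's methods place its wild-type mice on CD1 or mixed CD1 and C3H backgrounds. Adult donors were about 4 to 6 weeks old and postnatal donors about 1 to 5 days old. The age, genotype and culture state of the Lung and Tail samples are not given in their labels. pNSC lines were started from clusters picked by hand after 3 weeks in a medium with EGF and basic FGF, and such clusters were usually clonal, so a group may stand for very few founder cells. The same 2 Lung libraries served in every comparison with Lung.

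The alveolus, where gas is exchanged, is lined by alveolar type 1 (AT1) and alveolar type 2 (AT2) cells. AT2 cells make surfactant, the mixture of lipid and protein that keeps alveoli from collapsing. Thin AT1 cells cover most of the surface across which oxygen passes. Club cells are secretory cells of the conducting airways. Among the members, *Sftpc* and *Sftpb* encode the hydrophobic surfactant proteins, *Sftpa1* and *Sftpd* the surfactant collectins that bind microbes, and *Lamp3* a membrane protein of lamellar bodies, the organelles in which AT2 cells store surfactant. *Ager* encodes a receptor for advanced glycation end products that is abundant on AT1 cells, and *Aqp5* a water channel of AT1 cells and glands. *Cldn18* encodes a tight junction protein with a lung form, *Scgb1a1* the main secretory protein of club cells, and *Epcam* an adhesion molecule found on most epithelia, skin included.

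The factors NKX2-1 and FOXA1 or FOXA2 drive surfactant genes in lung epithelium, so the promoters of members were searched for short motifs that these factors can bind. Sequences came from RefSeq on GRCm38.p6 and cover the 250 bases before the annotated start, which matched 7 of the 10 members. Below, 4 are printed 5′ to 3′ on the strand of the gene: 3 genes of the AT2 cell that were at or near 0 in every pNSC line, and *Ager*, the member with counts in every library. Capitals mark CTCAAG for NKX2-1, or TGTTTAC or TGTTTGC for FOXA, on either strand. The windows are chr6:72304360-72304609 (plus strand) for *Sftpb*, chr14:41131538-41131787 (plus) for *Sftpa1*, chr16:19706366-19706615 (minus) for *Lamp3* and chr17:34597600-34597849 (plus) for *Ager*.
Sftpb: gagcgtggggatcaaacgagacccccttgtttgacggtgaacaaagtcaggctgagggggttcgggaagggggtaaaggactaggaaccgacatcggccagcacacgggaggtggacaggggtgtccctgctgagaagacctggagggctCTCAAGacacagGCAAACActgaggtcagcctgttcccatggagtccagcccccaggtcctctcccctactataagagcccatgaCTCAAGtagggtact
Sftpa1: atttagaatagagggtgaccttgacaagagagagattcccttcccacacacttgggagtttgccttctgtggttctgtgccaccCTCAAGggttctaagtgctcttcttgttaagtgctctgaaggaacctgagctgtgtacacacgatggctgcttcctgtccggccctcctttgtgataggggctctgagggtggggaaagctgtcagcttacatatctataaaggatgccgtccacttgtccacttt
Lamp3: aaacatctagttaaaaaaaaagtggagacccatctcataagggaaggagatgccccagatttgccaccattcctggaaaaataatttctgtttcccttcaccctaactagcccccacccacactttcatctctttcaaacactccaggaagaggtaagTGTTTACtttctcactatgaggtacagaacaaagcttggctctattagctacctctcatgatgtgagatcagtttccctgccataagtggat
Ager: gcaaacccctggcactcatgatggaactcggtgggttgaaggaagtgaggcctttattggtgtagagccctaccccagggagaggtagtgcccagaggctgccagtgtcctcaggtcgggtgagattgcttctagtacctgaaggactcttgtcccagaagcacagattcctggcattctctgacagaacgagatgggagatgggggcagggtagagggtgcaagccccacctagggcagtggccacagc

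In *Sftpb*, CTCAAG began 100 and 15 bases before the start, with TGTTTGC on the other strand at 88 bases before it. *Sftpa1* held CTCAAG at 166 bases before the start, and *Lamp3* held TGTTTAC at 92. The *Ager* window held none of these letters. Of the matched members not printed, *Cldn18* held TGTTTGC on the other strand in both of its annotated windows, and *Aqp5* and *Epcam* held none. CTCAAG occurs in 13.3% of 32851 promoter windows of the same length, and TGTTTAC or TGTTTGC in 7.29%. These matches describe the sequence only, and no binding was measured.

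Libraries held 9808246 to 22637031 counts, with the Wnt1Cre-mTmG brain NSC and Wnt1Cre-mTmG DRG pNSC libraries the shallowest at 9808246 to 11431445. Levels are given as cpm, the counts scaled to the size of the library with edgeR's TMM factors. A value of 3 counts in a library was taken as the least that separates a gene from none detected. A gene was called when its adjusted p (edgeR quasi-likelihood test, Benjamini-Hochberg over all genes tested) was under 0.05 and its log2 fold change was at least 1 in size. The study calls the replicates biological, but neither it nor the labels say whether they were separate animals, lines or cultures of the same line, so p-values measure only the spread between these libraries. By the study's account, brain NSCs mostly came from the same mice as the pNSCs they were compared with, and no source used here ties replicate numbers to mice. Intervals of counts and of folds between summed counts are exact 95% intervals and cover counting error only. In bulk RNA, fewer cells of a type and less RNA per cell cannot be told apart.

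In Lung, all 10 members were expressed, and the genes of club and AT2 cells led. Per kilobase of exon, the order of mean levels was *Scgb1a1* (30402 cpm per kb), *Sftpc* (10334), *Sftpb* (1602), *Ager* (985), *Sftpa1* (979), *Sftpd* (215), *Cldn18* (184), *Lamp3* (152), *Aqp5* (128) and *Epcam* (29.9). *Ager* and *Sftpa1*, at 980 to 990 and 976 to 982 cpm per kb, overlapped between the 2 libraries, and the other neighbours in the order did not. The 10 members together took 3.40% and 3.37% of all counts in the 2 Lung libraries. The label of the Lung samples therefore matched its markers for alveolar and club cells.

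*Sftpc*, on chr14:70520949-70524081 of GRCm38, stood at 197366 and 170787 counts in the 2 Lung libraries, which is 10685 ± 55.8 cpm (SD, n = 2). Both Lung-pNSC libraries had 0 counts of it, and the 3 Sox2-GFP lung pNSC libraries had 1, 0 and 0. The Lung level was at least 68995-fold higher than in Lung-pNSC, where the bound rests on 3 counts per library. For the Sox2-GFP lung pNSCs, with 1 count in 3 libraries, no fold is given, since the counts lie under 3 per library. Lung and lung pNSC libraries did not overlap.

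*Scgb1a1*, on chr19:9083636-9087958, had the highest level of any member, at 270716 and 228335 counts in Lung (14471 ± 338 cpm). It had 0 counts in every one of the 5 lung pNSC libraries. Lung was at least 93444-fold higher than Lung-pNSC and at least 104331-fold higher than the Sox2-GFP lung pNSCs. Over all 24 libraries of cultured NSCs, pNSCs and NCSCs, 23 had no count and 1 had a count of 1.

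The other surfactant genes gave the same picture. *Sftpb*, on chr6:72304610-72314371, had 59085 and 49639 counts in Lung (3152 ± 82.3 cpm), and *Sftpa1*, on chr14:41131782-41136452, had 51383 and 45044 (2800 ± 11.1 cpm). Both were at 0 in all 5 lung pNSC libraries. The Lung levels exceeded those in Lung-pNSC at least 20355-fold for *Sftpb* and 18079-fold for *Sftpa1*, and those in Sox2-GFP lung pNSCs at least 22727-fold and 20186-fold. *Sftpd*, on chr14:41172214-41185149, had 9545 and 8367 counts in Lung (520 ± 2.04 cpm) and 0 in the same 5 libraries, at least 3358-fold and 3750-fold below Lung. Neither *Sftpa1* nor *Sftpd* had a count in any of the 24 cultured libraries.

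*Lamp3*, on chr16:19653378-19706375, had 9260 and 8258 counts in Lung (509 ± 8.18 cpm) and none in the lung pNSCs. Its Lung level was at least 3286-fold that of Lung-pNSC and at least 3669-fold that of Sox2-GFP lung pNSCs. *Cldn18*, on chr9:99689461-99717267, had 15166 and 13132 counts in Lung (821 ± 3.92 cpm) and none in the lung pNSCs, at least 5303-fold and 5921-fold lower. The antisense gene *Gm16004* overlaps *Cldn18*, and reads of the overlap cannot be assigned without strand.

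**Figure D1:**
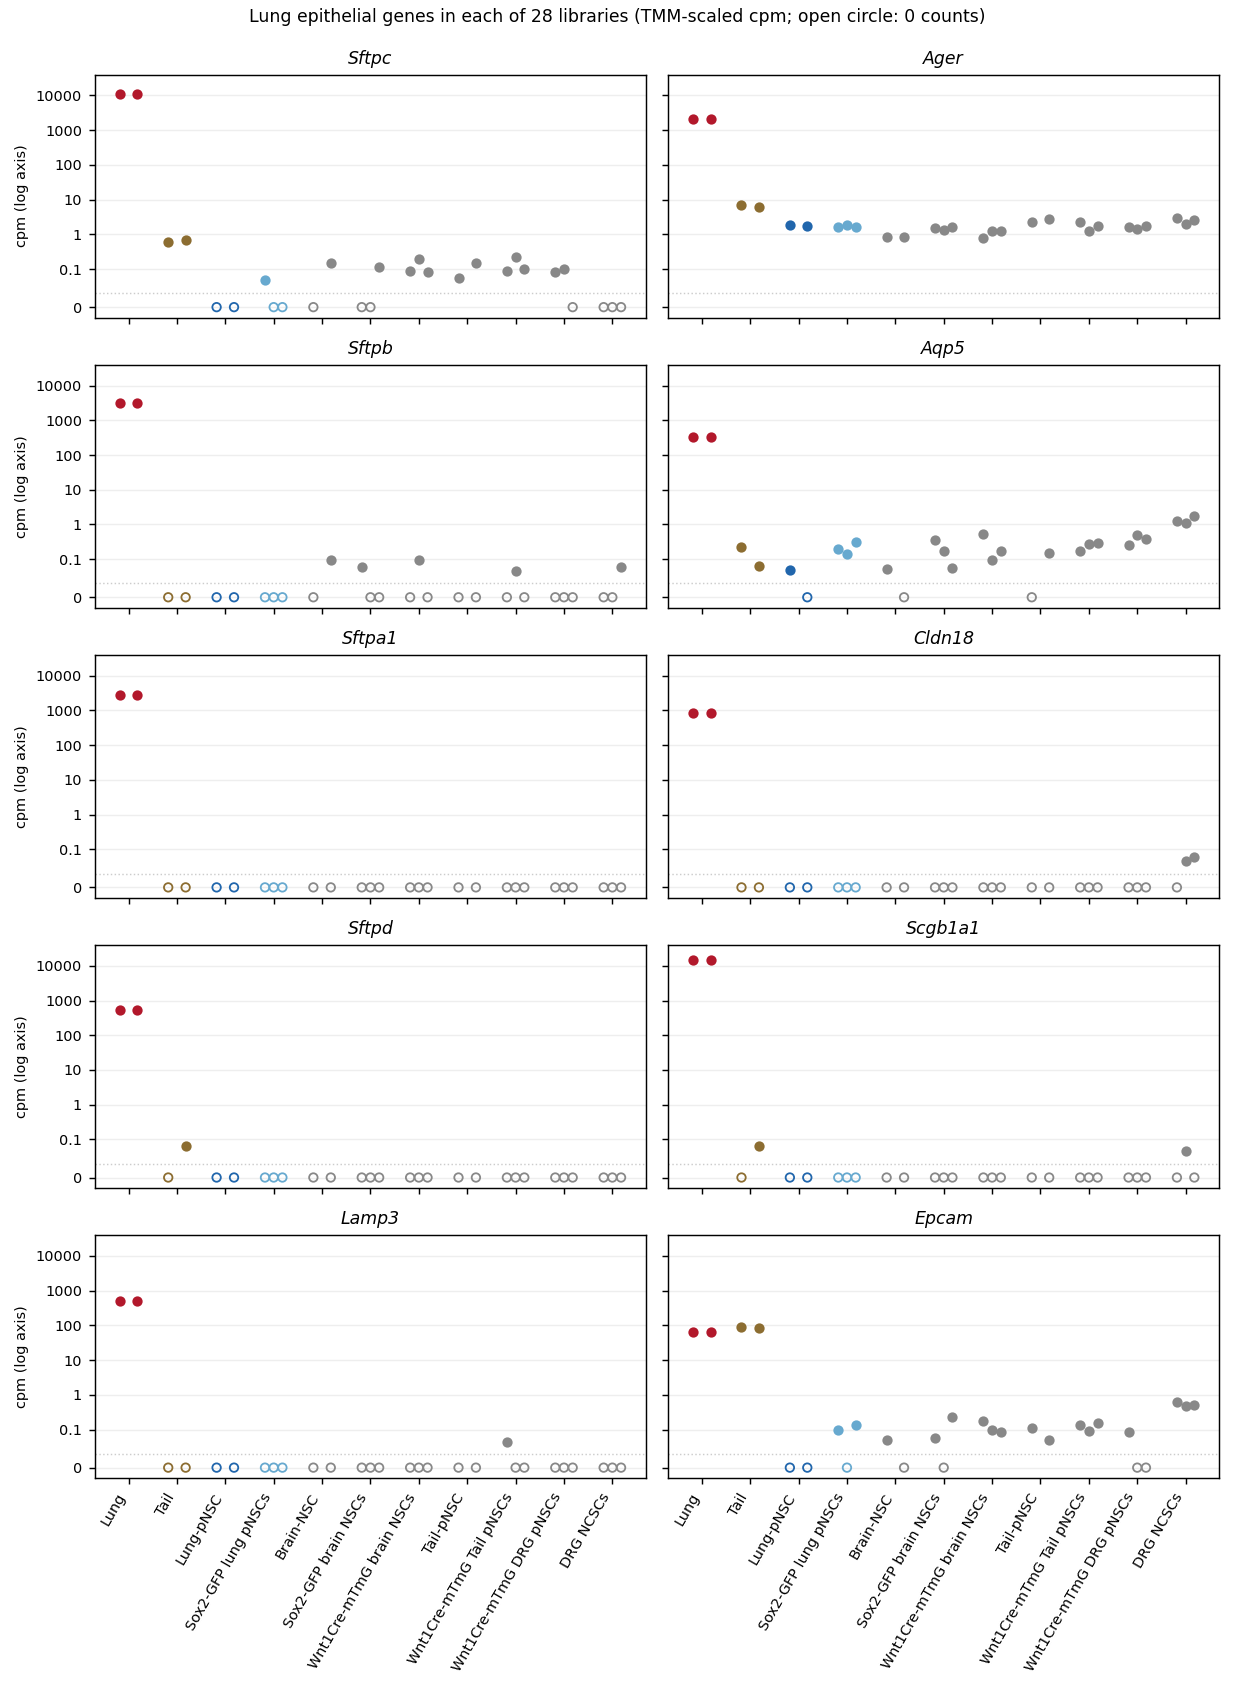
Level of each of the 10 members in each of the 28 libraries, in TMM-scaled cpm on a log axis, with 1 point per library and an open circle for 0 counts. Only Lung stands high for 9 members, Epcam is high in both Tail and Lung, and Ager is the only member with a count in every library.

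The 3 members that kept counts in lung pNSCs were *Ager*, *Aqp5* and *Epcam*, besides the 1 count of *Sftpc*. *Aqp5*, on chr15:99590782-99594829, fell from 6160 and 5297 counts in Lung (332 ± 3.21 cpm) to 1 and 0 in Lung-pNSC and to 4, 3 and 7 in Sox2-GFP lung pNSCs. The Lung-pNSC counts lie under 3 per library, so no fold is given for them. The ratio of Lung to Sox2-GFP lung pNSCs was 1543 with an interval of 919 to 2823. *Epcam*, on chr17:87635979-87651129, had 1197 and 1059 counts in Lung (65.5 ± 0.684 cpm). It had 0 and 0 counts in Lung-pNSC, at least 423-fold lower, and 2, 0 and 3 in Sox2-GFP lung pNSCs, where Lung was 851-fold higher (364 to 2623). *Ager*, on chr17:34597862-34600936, had 38995 and 33659 counts in Lung (2108 ± 14.8 cpm), 39 and 31 in Lung-pNSC, and 35, 39 and 37 in Sox2-GFP lung pNSCs. Its level was thus 0.0851% of that in Lung in Lung-pNSC (0.0663% to 0.108%), and 0.0810% in Sox2-GFP lung pNSCs (0.0666% to 0.0976%).

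All 10 members were called lower in Lung-pNSC than in Lung. In that comparison 55.0% of 16948 genes were called in either direction, 34.9% lower and 20.2% higher. All 10 were also called lower in Sox2-GFP lung pNSCs than in Lung, beside 56.3% of 16234 genes called in all, 34.9% lower and 21.3% higher. Members other than *Ager* passed the low-count filter only through Lung or Tail. Their lower call was thus fixed, here and for Brain-NSC below, and the counts are not read against those shares. For *Ager*, with counts in every lung pNSC library, the log2 fold change was −10.23 (SE 0.0633) in Lung-pNSC and −10.28 (SE 0.0408) in Sox2-GFP lung pNSCs. The adjusted p was too small to be represented, and over the alternative analyses it reached at most 2.48e-45 and 3.40e-48. The median log2 fold change of the members was −12.86 in Lung-pNSC and −12.20 in Sox2-GFP lung pNSCs, beside −0.15 and −0.12 over all genes tested. Here and below, genes at 0 were placed at their bound in these medians, and members with few counts entered at their fitted value. For *Aqp5* in Lung-pNSC, with 1 and 0 counts, that value was −13.35, so the median there is not a bound.

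**Figure D2:**
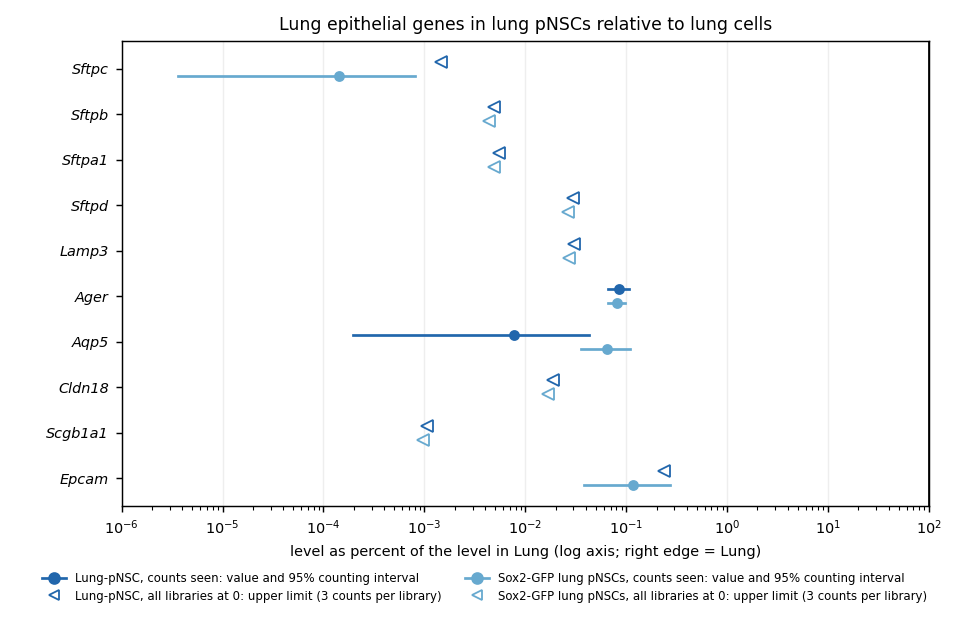
Level of each member in Lung-pNSC and Sox2-GFP lung pNSCs as a percent of its level in Lung, on a log axis whose right edge is Lung. Filled points are values with 95% counting intervals and open triangles are upper limits of 3 counts per library for genes at 0. Filled points that rest on counts under 3 per library are not read as folds. Every point lies below 1% of Lung, with Ager at 0.0851% and 0.0810%.

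Brain-NSC, which has no lung origin, gives the background for these values. All 10 members were called lower in Brain-NSC than in Lung as well, beside 56.5% of genes called in all and 35.4% called lower, and the members' median with bounds was −12.90. Leaving out *Ager*, a choice made after its values were seen, the other 9 members summed to 1149796 counts in Lung. They summed to 1 of 39412372 counts in Lung-pNSC, which is 7.96e-05% of the Lung level (2.01e-06% to 0.000443%). Brain-NSC had 7 counts, or 0.000538% of Lung (0.000216% to 0.00111%). Sox2-GFP lung pNSCs had 20 counts (0.000989%, 0.000604% to 0.00153%) and Sox2-GFP brain NSCs 19 (0.00105%, 0.000632% to 0.00164%). These intervals overlapped between lung pNSCs and brain NSCs in both experiments, so no order is read from them. With *Ager* included, the 10 members summed to 71 of 39412372 counts in Lung-pNSC against 41 of 40777741 in Brain-NSC. In the Sox2-GFP lines they summed to 131 of 63433327 in lung pNSCs against 105 of 56764016 in brain NSCs.

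Direct tests against brain NSCs separated only *Ager* from the rest. Between Lung-pNSC and Brain-NSC, 1 of 10 members was called, beside 8.71% of all genes tested (4.56% higher and 4.15% lower), and the other 9 were at or under 3 counts in every library of both groups, kept in the fit through Lung or Tail. *Ager* stood at 1.85 and 1.73 cpm in Lung-pNSC and 0.862 and 0.828 cpm in Brain-NSC, which did not overlap. The log2 fold change was 1.07 (SE 0.244, adjusted p = 0.000863), and over the alternatives it ran from 1.02 to 1.11 with adjusted p from 0.000686 to 0.0174.

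In the Sox2-GFP lines the same contrast gave no call. Of the 10 members 0 were called between Sox2-GFP lung pNSCs and Sox2-GFP brain NSCs by edgeR, 0 by DESeq2 and 0 at an unadjusted p under 0.05, beside 15.7% of all genes called (5.76% higher and 9.99% lower). Of the 10, 7 were at or under 3 counts in every library of both groups and entered the fit through Lung, so their lack of a call carries no weight. *Ager* was at 1.67, 1.81 and 1.64 cpm in the lung pNSCs and 1.5, 1.34 and 1.66 cpm in the brain NSCs, and these ranges overlapped. Its log2 difference of 0.20 had a 95% interval of −0.16 to 0.56 (adjusted p = 0.401). *Aqp5* differed by 0.18 (−0.92 to 1.27) and *Epcam* by −0.15 (−1.87 to 1.57), so neither a rise nor a fall of up to that size could be told apart at these depths.

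Whether the lung and brain contrast of a member differed between the 2 experiments was tested as an interaction over all 28 libraries. No member of 10 was called by edgeR or by DESeq2, beside 14.1% of 17393 genes, and 1, *Ager*, had an unadjusted p under 0.05. The same 7 members were at or under 3 counts in all 4 groups of the contrast. The *Ager* contrast was larger in the Lung-pNSC and Brain-NSC pair by 0.88 on the log2 scale (SE 0.326, interval 0.24 to 1.52, adjusted p = 0.0327), under the fold limit. The adjusted p ran from 0.0202 to 0.0926 over the alternatives. Without Sox2-GFP brain NSC replicate 2 the difference was 1.01 and was called. *Ager* was higher in Sox2-GFP brain NSCs (1.5 ± 0.162 cpm) than in Brain-NSC (0.845 ± 0.0242 cpm), while the 2 lung pNSC groups were at 1.71 ± 0.0900 and 1.79 ± 0.0842 cpm.

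*Ager* was found in every cultured group, from 0.804 cpm in a Wnt1Cre-mTmG brain NSC library to 2.92 cpm in a DRG NCSC library, and no cultured library had fewer than 9 counts. Mean levels ran in the order Tail-pNSC (2.51 ± 0.319 cpm, n = 2), DRG NCSCs (2.45 ± 0.491, n = 3), Lung-pNSC (1.79), Wnt1Cre-mTmG Tail pNSCs (1.77 ± 0.493, n = 3), Sox2-GFP lung pNSCs (1.71), Wnt1Cre-mTmG DRG pNSCs (1.57 ± 0.179, n = 3), Sox2-GFP brain NSCs (1.5), Wnt1Cre-mTmG brain NSCs (1.11 ± 0.265, n = 3) and Brain-NSC (0.845). Neighbours in this order overlapped between libraries, except DRG NCSCs with Lung-pNSC and Sox2-GFP brain NSCs with Wnt1Cre-mTmG brain NSCs. The lung-derived lines therefore lay within the range of the lines from tail, ganglion and brain.

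The counts of *Ager* in lung pNSCs came without counts of the AT2 and club cell genes that stood beside it in Lung, besides the 1 count of *Sftpc*. *Aqp5* and *Epcam* were closer to their Lung ratio in Sox2-GFP lung pNSCs, while both lay under it in Lung-pNSC. Lung held 5.07 *Sftpc* counts and 6.87 *Scgb1a1* counts for each *Ager* count. At that ratio the 70 *Ager* counts of Lung-pNSC would go with 355 counts of *Sftpc* and 481 of *Scgb1a1*, and both were found at 0. *Aqp5* would be at 11.04 and *Epcam* at 2.17, and 1 and 0 were found. The 111 *Ager* counts of Sox2-GFP lung pNSCs would go with 562 of *Sftpc* and 762 of *Scgb1a1*, and 1 and 0 were found. In the same libraries *Aqp5* had 14 counts where the Lung ratio gives 17.5, and *Epcam* 5 where it gives 3.45. Brain-NSC, with 34 *Ager* counts, had 3 of *Sftpc* and 0 of *Scgb1a1*, and 1 each of *Aqp5* and *Epcam* where the Lung ratio gives 5.36 and 1.06. The Sox2-GFP brain NSC libraries, with 26, 31 and 29 *Ager* counts, had 6, 4 and 1 of *Aqp5* and 1, 0 and 4 of *Epcam*. Lung held 0.158 *Aqp5* and 0.0311 *Epcam* counts for each *Ager* count.

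*Ager* lies in a dense stretch of chromosome 17. *Pbx2*, a homeobox gene on the same strand, ends 461 bases from it, *Rnf5* on the opposite strand 154 bases away, and the annotated antisense gene *Gm20463* on the same strand 214 bases away, and none of the 3 overlaps it. *Pbx2* was at 36.5 cpm in Lung-pNSC, 36.0 in Brain-NSC, 49.9 in Tail-pNSC, 35.4 in Sox2-GFP lung pNSCs and 95.6 in Lung. *Rnf5* ran the other way, at 17.1 cpm in Lung, 30.2 in Lung-pNSC, 40.8 in Brain-NSC and 30.6 in Tail-pNSC. Their part in the counts of *Ager* was not tested.

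**Figure D3:**
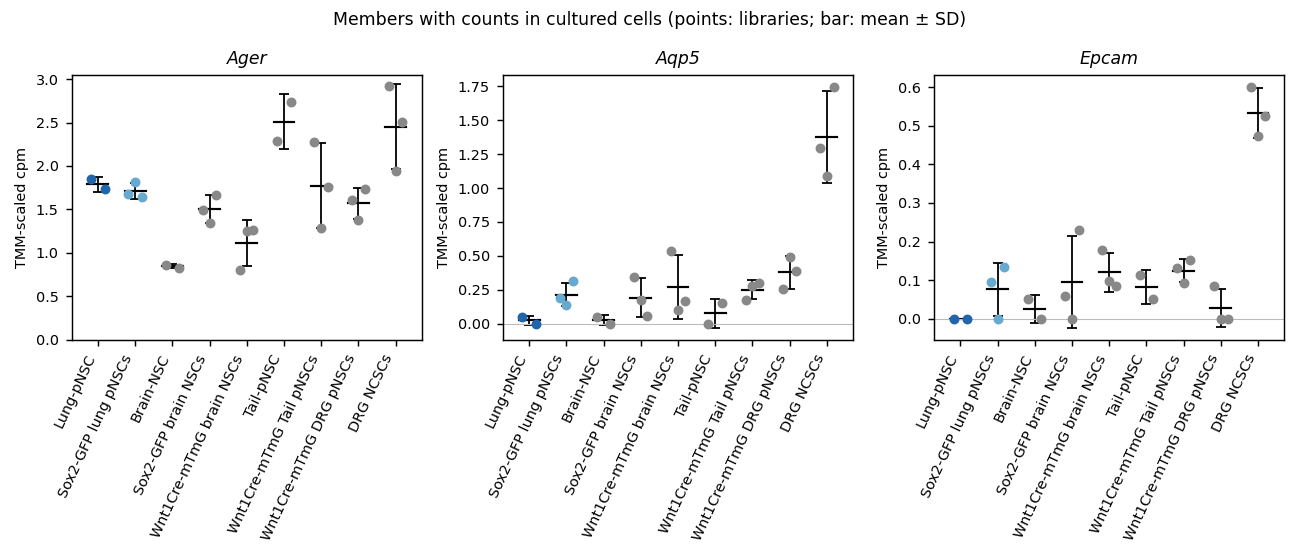
TMM-scaled cpm of Ager, Aqp5 and Epcam in the 9 groups of cultured cells, with 1 point per library and bars for the mean and SD. Ager lies between 0.804 and 2.92 cpm in all groups, while Aqp5 and Epcam are highest in the DRG NCSCs at 1.38 and 0.533 cpm on average.

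The tail-derived lines carried more *Ager* than Brain-NSC. *Ager* was at 2.28 and 2.74 cpm in Tail-pNSC, above both Brain-NSC libraries, with a log2 fold change of 1.57 (SE 0.227, adjusted p = 2.48e-08). It was the 1 member of 10 called there, beside 10.9% of all genes (4.31% higher), and the other 9 were at or under 3 counts in both groups. Between Lung-pNSC and Tail-pNSC *Ager* differed by −0.50 (SE 0.191, adjusted p = 0.0501, with 0.0423 to 0.342 over the alternatives) and was not called. The 1 member called there, beside 12.9% of genes (5.00% lower), was *Sftpc*, with 0 and 0 counts against 1 and 3 (adjusted p = 0.0320). Those counts lie at or under the limit of 3 per library, no fold is given, and the call was made in 5 of 9 alternatives.

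In the Wnt1Cre-mTmG experiment only *Ager* and *Aqp5* passed the filter on low counts. Of these 2, 0 were called in Wnt1Cre-mTmG Tail pNSCs against Wnt1Cre-mTmG brain NSCs by edgeR and 0 by DESeq2, beside 18.2% of genes, and *Ager* alone had an unadjusted p under 0.05. *Ager* was at 2.27, 1.29 and 1.76 cpm in those tail lines and 0.804, 1.26 and 1.27 cpm in the brain lines, a log2 difference of 0.68 (SE 0.295, adjusted p = 0.0510). With the replicate number as a block its adjusted p was 0.0376, still under the fold limit. Over the 12 alternatives the log2 difference ran from 0.45 to 0.87 and the adjusted p from 0.0157 to 0.218, with 0 calls. The mesenchymal list was also higher in those tail lines, at 578 to 593 cpm against 106 to 110 cpm, with 7 of 8 tested genes called higher, and its part in *Ager* was not tested. In Wnt1Cre-mTmG DRG pNSCs 0 of 2 were called by edgeR, by DESeq2 and at an unadjusted p under 0.05, beside 9.53% of genes, and *Ager* differed by 0.50 (−0.16 to 1.17).

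DRG NCSCs were the cultured group with the most *Aqp5* and *Epcam*. *Aqp5* had 28, 23 and 30 counts (1.38 ± 0.338 cpm, n = 3) against 6, 1 and 2 in Wnt1Cre-mTmG brain NSCs (0.267 ± 0.235 cpm), and no library of the 2 groups overlapped. The log2 fold change was 2.31 (SE 0.437, adjusted p = 0.000111). *Ager* was higher by 1.15 (SE 0.281, adjusted p = 0.00117), so both members tested were called higher, beside 36.9% of genes called in all and 22.1% called higher. *Aqp5* passed the low-count filter only through the NCSCs, so that count is not read against those shares. Without Wnt1Cre-mTmG brain NSC replicate 1 the difference in *Ager* was 0.96 and fell under the fold limit. *Epcam* had 13, 10 and 9 counts in the NCSCs (0.533 ± 0.0650 cpm) and 2, 1 and 1 in the brain NSCs, too few to pass the filter. In a fit of all 28 libraries it was higher by 2.09 (adjusted p = 0.00310). That fit also called *Sftpc* lower in the NCSCs (adjusted p = 0.00625), on 0 counts in each NCSC library against 1, 2 and 1, which lie under the limit of 3 and give no fold. Other markers stood apart in the NCSCs too. The 8 leukocyte genes summed to 614 to 651 cpm, with none at 0 and all 7 of those tested called higher, against 2.77 to 3.89 cpm in the brain NSCs and at most 5.14 cpm in any other cultured library. The 12 general epithelial genes summed to 7.09 to 11.02 cpm against 0.422 to 0.484 cpm, with 4 at 0 and all 3 of those tested called higher. Genes such as *Cdh1* (221 counts against 2) and, among leukocyte genes, *Ptprc* (694 against 0) passed the low-count filter only through the NCSCs. Their higher calls were fixed by that filter and are not read as a test. The 10 mesenchymal genes summed to 3828 to 4219 cpm against 106 to 110 cpm, with 6 of 8 tested called higher and 1 lower (7 of 8 were higher in the Wnt1Cre-mTmG Tail pNSCs too), and the 8 endothelial genes to 45.5 to 49.3 cpm against 4.64 to 5.03 cpm, with 5 of 6 higher and 1 lower. Of the AT1 list, 1 of 7 tested genes was higher and 6 were lower, and of the neural stem cell list 0 of 8 were higher and 6 lower. The part of these other cells or genes in *Aqp5*, *Ager* and *Epcam* was not tested.

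Tail, the other tissue in the table, separated *Epcam* from the other 9 members. *Epcam* had 1578 and 1340 counts in Tail (87.1 ± 2.21 cpm), which is 133% of the Lung level (126% to 141%). It was lower in Lung by 0.47 on the log2 scale, at a value of −0.47 (SE 0.0643, adjusted p = 5.78e-13), under the fold limit. The other 9 members were called higher in Lung than in Tail, beside 43.4% of genes called in all and 22.9% called higher. Most of the 9 passed the low-count filter only through Lung, so this count is not read against those shares. The median of the 10 with bounds was 12.95, beside −0.01 over all genes. The marker list of 8 keratinocyte genes summed to 8050 to 8218 cpm in Tail and 158 to 166 cpm in Lung.

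Tail held low but countable *Ager* and *Sftpc*. *Ager* had 121 and 94 counts (6.40 ± 0.564 cpm), 328-fold below Lung (287 to 377). *Sftpc* had 11 and 11 counts (0.660 ± 0.0595 cpm), 16266-fold below Lung (10743 to 25955). At the ratio of genes in Lung, those 22 *Sftpc* counts would go with 29.8 counts of *Scgb1a1* and 6.5 of *Sftpb*, and 1 and 0 were found. *Sftpd* had 1 count where the ratio gives 1.07, and *Aqp5* had 5 where it gives 0.685. *Sftpa1*, *Sftpb*, *Lamp3* and *Cldn18* had no count in either Tail library.

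Between Tail-pNSC and Tail, 3 of the 10 members were called lower, beside 46.7% of all genes called and 32.6% lower. Another 6 were at or under 3 counts in every library of both groups, and had entered the fit through Lung, so the share is not read against that of all genes. *Epcam* fell from 1578 and 1340 counts to 2 and 1, *Ager* dropped by 1.43 on the log2 scale (SE 0.145, adjusted p = 8.67e-17), and *Sftpc* went from 11 and 11 counts to 1 and 3 (adjusted p = 5.84e-05). The loss of *Epcam* from Lung to lung pNSCs was thus seen from Tail to Tail-pNSC too.

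Marker lists that hold none of the members were read for the same cell types. In Lung-pNSC against Lung, all 10 club cell genes, all 8 ciliated cell genes, all 12 general epithelial genes and all 5 lung epithelial transcription factors were called lower. Of 12 AT2 genes 11 were lower, and of 10 AT1 genes 9 were lower. Sox2-GFP lung pNSCs gave 10, 8, 12, 5, 10 and 9 lower in the same order. The lists were chosen with earlier results of these data known. Genes such as *Scgb3a2*, at 0 counts in both lung pNSC groups, passed the low-count filter only through Lung, which fixed their lower call. The same limit holds for the other lists below.

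Some list genes were at 0 in the lung pNSCs and others kept counts. *Slc34a2*, the phosphate transporter of AT2 cells, was at 2393 ± 13.3 cpm in Lung and 0 in all 5 lung pNSC libraries, and *Cxcl15*, a lung chemokine, at 1387 ± 24.0 cpm and 0. *Nkx2-1*, the transcription factor that specifies lung epithelium, was at 234 ± 9.02 cpm in Lung and 0 in both lung pNSC groups. These were the 2 of 12 AT2 genes and the 1 of 5 factors at 0 in Lung-pNSC. Among the other AT2 genes, *Chil1* kept 33 counts in Lung-pNSC and 21 in Sox2-GFP lung pNSCs, and *Muc1* 43 and 65, against 20829 and 8564 in Lung. *Cebpa*, a factor of lung epithelium and of several other tissues, was called lower than in Lung but stayed at 17.2 cpm in both lung pNSC groups, against 180 cpm in Lung and 11.96 cpm in Brain-NSC. The 12 general epithelial genes summed to 1183 to 1219 cpm in Lung and 0.0948 to 0.112 cpm in Lung-pNSC, where 10 of the 12 were at 0. In Sox2-GFP lung pNSCs they summed to 0.355 to 1.05 cpm with 6 at 0, and in Brain-NSC to 0.304 to 0.536 cpm.

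A few list genes were abundant in pNSCs and in brain NSCs alike. The AT2 list still summed to 819 to 827 cpm in Lung-pNSC, from *Etv5* (549 cpm), *Lpcat1* (161 cpm) and *Abca3* (111 cpm). The same 3 genes were at 362, 191 and 86.6 cpm in Brain-NSC, where the list summed to 641 to 649 cpm. *Etv5*, a transcription factor induced by FGF signalling, was the 1 AT2 gene called higher in both lung pNSC groups than in Lung, by 1.87 (SE 0.0364) and 1.26 (SE 0.0271) on the log2 scale. *Igfbp2*, which encodes a binding protein of insulin-like growth factors, was the 1 AT1 gene called higher, by 4.57 and 3.51. Other AT1 genes were called lower than in Lung and still stood at 10 cpm or more in a lung pNSC group. In Lung-pNSC *Clic5* was at 51.4 cpm, *Rtkn2* at 21.97, *Emp2* at 13.4 and *Akap5* at 11.1, and in Sox2-GFP lung pNSCs *Pdpn* was at 27.5. *Aldh1a1*, the only club list gene at this level, was at 10.5 and 20.01 cpm in the 2 lung pNSC groups and 875 cpm in Lung.

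Against the brain NSCs, lists differed in how many genes were called. In Lung-pNSC, beside 8.71% of all genes called, 1 AT2 gene was called higher and 1 lower, with *Chil1* at 1.88 and *Muc1* at −1.51, and 1 AT1 gene higher and 2 lower, with *Clic5* at 2.25, *Hopx* at −3.26 and *Rtkn2* at −1.94. No general epithelial gene was called, but 11 of the 12 were at or under 3 counts in both groups. Of 8 ciliated genes 5 were lower, among them *Foxj1*, the regulator of motile cilia, at −1.41. Of 5 lung epithelial factors 1 was higher and none lower, *Foxa2*, with 12 counts in Lung-pNSC and 0 in Brain-NSC. The club list had 1 gene higher, *Aldh1a1* at 1.36, and the endothelial list 2 higher. The mesenchymal list had 2 higher, among them *Fn1* at 1.23, and 1 lower. The lower gene was *Acta2*, at 1.53 cpm in Lung-pNSC and 34.5 cpm in Brain-NSC. In Sox2-GFP lung pNSCs, beside 15.7% of all genes called, 0 AT2 genes were higher and 3 lower, 2 AT1 genes higher and 3 lower, and 1 general epithelial gene, *Cdh1*, was lower at −2.63. Of 5 lung epithelial factors 1 was higher, *Cebpa* at 1.45, and 2 were lower. Of 10 mesenchymal genes 1 was higher and 4 lower, with *Pdgfra* at −2.16. Of 8 ciliated genes 0 were higher and only 1 was lower. *Clic5* at 2.77 and *Hopx* at −4.26 went the same way as in Lung-pNSC, and *Chil1* at −1.31 the opposite way. *Aldh1a1* also went the opposite way, at 20.01 cpm in Sox2-GFP lung pNSCs and 88.1 cpm in Sox2-GFP brain NSCs. So did *Rtkn2*, at 46.5 cpm in these lung pNSCs and 29.5 cpm in these brain NSCs.

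Markers of the other lung cell types were also lower. All 10 mesenchymal, 8 endothelial and 8 leukocyte genes were called lower in both lung pNSC groups than in Lung. The endothelial list summed to 5384 to 5469 cpm in Lung and 4.65 to 6.14 cpm in Lung-pNSC, and the leukocyte list to 4477 to 4498 cpm and 2.47 to 3.29 cpm. The mesenchymal list fell less, from 6212 to 6358 cpm in Lung to 160 to 163 cpm in Lung-pNSC and 114 to 116 cpm in Sox2-GFP lung pNSCs, beside 107 to 109 cpm in Brain-NSC. Most of that was *Fn1*, the matrix protein fibronectin, at 152 and 91.4 cpm in the lung pNSCs, 64.2 in Brain-NSC and 1291 in Lung. *Pdgfra*, a growth factor receptor of mesenchyme and of oligodendrocyte precursors, was at 7.02 and 21.5 cpm in the lung pNSCs. It was at 8.62 cpm in Brain-NSC and 96.1 cpm in Sox2-GFP brain NSCs, where *Fn1* was at 57.4 cpm. Against those Sox2-GFP brain NSCs, 4 of the 10 mesenchymal genes were called lower in Sox2-GFP lung pNSCs and 1 higher. Of 8 keratinocyte genes, 6 were lower and 2, *Lor* and *Krt10*, higher in Lung-pNSC, with *Krt10* at 9.81 cpm there and 10.1 cpm in Sox2-GFP lung pNSCs. The 8 neural stem cell genes went the other way, from 293 to 317 cpm in Lung to 4562 to 4701 cpm in Lung-pNSC and 4585 to 4651 cpm in Sox2-GFP lung pNSCs, with all 8 called higher in both. *Fabp7* (2029 cpm), *Olig2* (1234), *Nes* (825) and *Sox2* (302) were the highest in Lung-pNSC.

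**Figure D4:**
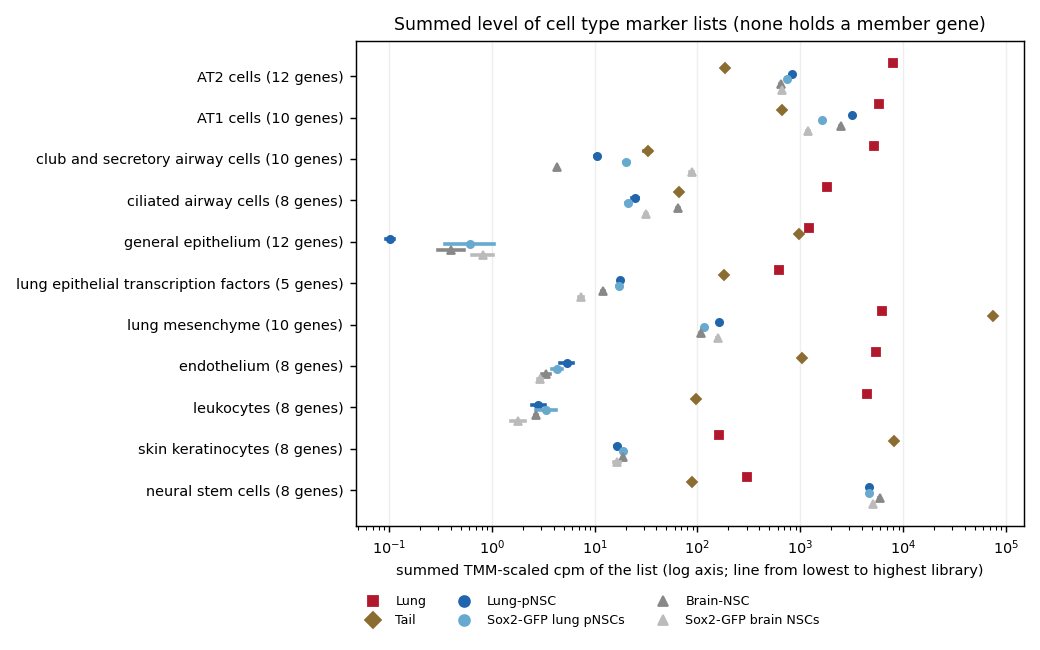
Summed TMM-scaled cpm of each marker list, on a log axis, in Lung, the lung pNSC groups and the brain NSC groups, with a line from the lowest to the highest library. General epithelial genes fall from 1183 to 1219 cpm in Lung to about 1 cpm or less in the lung pNSC and brain NSC groups drawn, while the neural stem cell list rises.

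Across the 11 group means of log2(cpm + 1), 13294 genes with at least 10 cpm in some group were ranked by their likeness to each member. This is a description of a pattern carried by very few groups, since 50 to 176 genes had a Pearson r over 0.99 with each member. *Sftpa1*, *Sftpb*, *Lamp3* and *Scgb1a1* were each most like the same 10 tied genes, among them *Bpifa1*, *Cyp2e1* and *Fabp1*, which had counts in Lung and none elsewhere. The closest gene was *Ighd* for *Sftpc*, *Tbx5* for *Sftpd*, *Retnla* for *Cldn18*, *Lilra5* for *Aqp5* and *Nostrin* for *Ager* (r = 0.998). For *Epcam* they were *Krt23*, *Ppl* and *Plbd1*, which were high in both Lung and Tail. *Nostrin* followed *Ager* in Lung (80.6 cpm) and Tail (1.54 cpm) and reached at most 0.576 cpm in cultured groups.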

How the data were processed

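RNA-seq was run on 28 mouse libraries in 11 groups, from polyA-selected RNA in single-end reads. The authors aligned reads to GRCm38 with HISAT2, used Cufflinks for annotation and deposited raw htseq-count counts per gene in 1 table. The annotation release and strand setting are not given in the sources used here. All 28 columns matched a sample and 0 were left unused. Groups came from the sample titles, and the labels name no batch.

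The counts were tested with edgeR 4.0.16 in R 4.3.3, in a separate fit for each of 3 experiments and 1 over all libraries. Genes were kept by filterByExpr (minimum count 10, minimum total 15), scaled by TMM and tested two-sided with the quasi-likelihood test. Python 3.11.15, scipy 1.17.1 and matplotlib 3.10.9 gave intervals and figures. Fits were tested on simulated counts. The members, lists and tests were chosen with earlier results of these data known. All members are named. Of a list, at most 3 called genes with the largest changes are named, with any at 10 cpm or more in a lung pNSC group (of neural stem cell genes, the 4 highest). Likeness was Pearson r over group means of at least 10 cpm in some group.

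The alternatives were DESeq2 1.42.0, other scalings, no filter, no fold limit, only the 2 groups compared or all groups in a fit, each replicate left out and a replicate block.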

Additional observations from a re-analysis of the deposited data

Results flagged for a closer look

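The contrast of *Ager* between lung pNSCs and brain NSCs differed between the 2 experiments by 0.88 on the log2 scale (SE 0.326, interval 0.24 to 1.52, adjusted p = 0.0327 by edgeR's quasi-likelihood test), and this was drawn out because the difference itself was tested and passed the p threshold, though not the fold limit. *Ager* was higher in both Lung-pNSC libraries than in both Brain-NSC libraries, whereas the Sox2-GFP lung pNSC and brain NSC libraries overlapped. The 2 lung pNSC groups overlapped, at 1.73 to 1.85 cpm in Lung-pNSC and 1.64 to 1.81 cpm in Sox2-GFP lung pNSCs. Brain-NSC was at 0.828 to 0.862 cpm and Sox2-GFP brain NSCs at 1.34 to 1.66 cpm. The lung pNSCs came from adult lung in the former and postnatal lung in the latter. The donor age of the 2 brain NSC groups, which did not overlap, is not given in the sources used here. Reporter differed as well, and neither age nor reporter was tested. Over the 14 alternatives the adjusted p ran from 0.0202 to 0.0926.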

How the results depend on the processing

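The fall of all 10 members from Lung to either lung pNSC group was called under every alternative run. Members other than *Ager* passed the low-count filter only through Lung or Tail. Their lower call was thus fixed, and only for *Ager* does its return under the alternatives carry weight. Over all alternatives, and leaving out members at or under 3 counts in every library of the groups compared, 668 values of single members kept their direction and side of the threshold, 3 passed it, 1 lost it and 12 reversed. Of counts of members called, 145 stayed within 1.5 times and 11 moved. Between Lung-pNSC and Tail-pNSC the count was 0 with DESeq2 and 0 with only the 2 groups compared, and leaving out 1 library gave 0 to 1 (0 without Tail-pNSC replicate 2 or without either Lung-pNSC library). Between Lung-pNSC and Brain-NSC leaving out 1 library gave 1 to 2, the second being *Sftpc* without Brain-NSC replicate 1, at or under 3 counts per library. Between DRG NCSCs and Wnt1Cre-mTmG brain NSCs it was 4 with no filter and 4 with all 28 samples in 1 fit, which add *Epcam* (higher) and *Sftpc* (lower), and 1 to 2 on leaving out 1 library. For the interaction it was 1 with no fold limit and 0 to 1 on leaving out 1 library. The cause was not tested beyond the genes or libraries that each setting adds or removes. Reversals came only on leaving out 1 library, for members with few counts. *Aqp5* ran from −4.57 to 0.23 in Tail-pNSC against Tail, from −0.20 to 0.77 in Sox2-GFP lung pNSCs against Sox2-GFP brain NSCs, from −0.47 to 0.84 in Wnt1Cre-mTmG Tail pNSCs against Wnt1Cre-mTmG brain NSCs, and from −2.32 to 2.05 in the interaction. *Epcam* ran from −0.85 to 1.43 in Sox2-GFP lung pNSCs against Sox2-GFP brain NSCs and from −3.55 to 0.17 in the interaction. Members at or under 3 counts were less stable still: *Sftpc* in Lung-pNSC against Tail-pNSC was called in 5 of 9 alternatives, and *Aqp5* ran from −2.19 to 2.23 in Lung-pNSC against Brain-NSC, from −3.65 to 2.23 in Lung-pNSC against Tail-pNSC and from −2.20 to 3.66 in Tail-pNSC against Brain-NSC. Replicate numbers did not pair the libraries, with correlations of same-numbered deviations from −0.016 to 0.035, and the replicate block moved no count of members called: it gave 10 in Lung-pNSC against Lung and 1 in Lung-pNSC against Brain-NSC. Scaling to the library total lowered Lung levels to 0.955 to 0.956 of the TMM value. Over all genes, the median log2 fold change from Lung to Lung-pNSC was −0.15 with TMM, −0.24 with DESeq2 and −0.07 with upper-quartile scaling. At 9808246 counts, the shallowest library could not show a member under 3 counts.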
